A study of Mus musculus with 6 samples.

Results

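Ganglion cells are the output neurons of the retina, and 10 genes that mark them or build their axons were followed in rd1/rd1 mice as their photoreceptors were lost. The genes were Pou4f1, Pou4f2, Pou4f3, Rbpms, Thy1, Slc17a6, Nefl, Nefm, Nefh and Sncg, and their members on the array were all probes whose only gene symbol was one of these names. This gave 18 probes of 8 genes, out of 45281 probes and 19057 named genes on the array. Pou4f2 and Nefh matched no probe and were not analysed here. Illumina bead arrays, which carry probes for named transcripts, were hybridised with RNA from punches of the central retina. Each array held 1 pool of 3 to 6 punches, 1.5 mm across, and there were 3 pools from animals aged 2 months and 3 from animals aged 8 months. All animals were rd1/rd1, untreated, and no retina without the mutation was measured, so values describe ageing within the degenerating retina only. The number of mice behind a pool, and any sharing of mice between pools, are not in the labels, so p-values reflect the variation among pools, some of which may be technical.

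Ganglion cells collect signals from bipolar and amacrine cells and send them through the optic nerve to the brain. In rd1 mice a mutation of Pde6b, a subunit of rod phosphodiesterase, kills rods and then cones, while ganglion cells are known to outlive them, which is why they are a target for implants and optogenetic tools. Their identity is held by the POU domain transcription factors of the Brn3 family, encoded by the Pou4f genes. Their long axons are filled with neurofilaments, polymers of light, medium and heavy chains encoded by Nefl, Nefm and Nefh.

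Values are on the log2 scale of the deposited table, which runs from 6.98 to 14.5 with a median of 7.19 on all arrays together. A probe near that median is hard to tell from background, and its differences are understated. A probe was tested when it was above the median of the array in 3 or more samples, and each gene was represented by its brightest such probe. By this filter 13 of the 18 probes and 6 of the 8 genes could be tested: Pou4f1, Rbpms, Thy1, Slc17a6, Nefm and Sncg. The only probes of Nefl and Pou4f3 did not pass. Samples differed in the level of blood and muscle genes, and the source of these transcripts was not tested. The summed level of 3 haemoglobin genes was 12.3 to 13.7 at 2 months and 11.1 to 11.2 at 8 months. Of the 6 samples, 2 month replicate 2 was highest for these genes. It was also highest for the skeletal muscle genes (12.1, against 9.89 to 10.8 in the other samples). In 8 month replicate 3 the summed level of 9 pigment epithelium genes was 13.8, against 14.6 to 14.98 in the other samples.

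For none of the 6 genes did a rise or fall between 2 and 8 months pass the test. By limma with Benjamini-Hochberg adjustment over 12046 genes, 0 of 6 passed an adjusted p of 0.05 in either direction, where 0.158% of all genes were called higher and 0.0664% lower. At an unadjusted p below 0.05 the count was also 0 of 6, where 5.1% of all genes were higher and 5.34% lower, and it was 1 or 2 under 9 of 17 alternatives. The changes of the 6 genes ran from −0.05 to 0.29, 5 positive and 1 negative, with a median of 0.11, beside a median of 0.000482 over all genes. The ages overlapped for all 6, while 7.45% of all genes lay higher at 8 months without overlap and 7.59% lower. In pooled tissue fewer ganglion cells and less RNA per cell cannot be told apart.

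**Figure D1:**
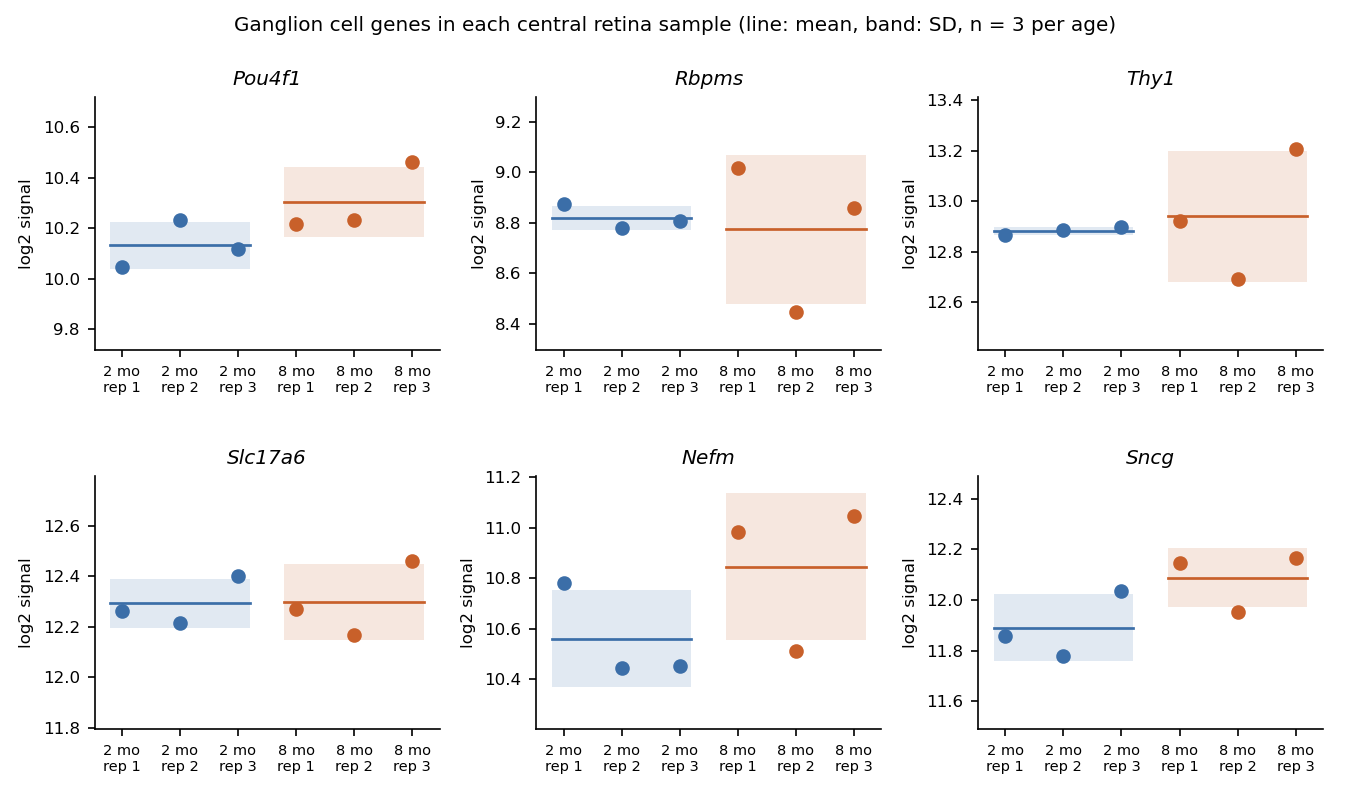
The log2 signal (vertical axes, each spanning 1 log2 unit) of the 6 tested genes is plotted for each sample, 2 month samples in blue and 8 month samples in orange, with lines for the mean and bands for the SD of each age (n = 3). The ages overlap in every panel, and 8 month replicate 3 is the highest sample in 5 of the 6.

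Pou4f1 encodes Brn3a, a transcription factor needed for the maturation and survival of many ganglion cells. Its level was 10.0, 10.2 and 10.1 in 2 month replicates 1, 2 and 3, and 10.2, 10.2 and 10.5 in the 8 month replicates. The highest value belonged to 8 month replicate 3, and the other samples of that age lay at the level of 2 month replicate 2. The change was 0.17 (SE 0.0825, n = 3 per age, limma adjusted p = 0.559), a fold of 1.13 with a 95% interval from 0.985 to 1.29. The change was 0.09 without 8 month replicate 3 and 0.35 (SE 0.161) with the haemoglobin level as a covariate. That level did not overlap between the ages, so age and this covariate cannot be told apart. The other probes of Pou4f1, whose values ran from 7.09 to 7.22, were too dim to test. Among them ILMN_3109300 lay at 7.11 to 7.15 at 2 months and at 7.19 to 7.22 at 8 months, with no overlap but within 0.112 of each other.

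RefSeq promoters (GRCm38.p6) are shown for the 3 tested genes whose promoter was among the sequences at hand. Pou4f1 encodes the factor that marks these cells, and Sncg and Slc17a6 are genes of their axons and synapses. Promoters of Rbpms, Thy1 and Nefm were not among those sequences. Each stretch runs from 250 bases before to 50 bases after a transcription start, 5′ to 3′ on the strand of the gene. Pou4f1 lies on the minus strand at chr14:104467950-104468249, Sncg on the minus strand at chr14:34374620-34374919, and Slc17a6 on the plus strand at chr7:51621580-51621879. Capitals mark the GC box letters CCGCCC on either strand.
Pou4f1: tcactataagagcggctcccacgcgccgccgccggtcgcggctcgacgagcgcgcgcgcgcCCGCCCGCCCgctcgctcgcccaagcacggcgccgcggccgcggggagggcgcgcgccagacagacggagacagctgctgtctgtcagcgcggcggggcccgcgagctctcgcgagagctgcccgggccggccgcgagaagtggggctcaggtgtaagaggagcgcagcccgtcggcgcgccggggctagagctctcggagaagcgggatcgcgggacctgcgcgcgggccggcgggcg
Sncg: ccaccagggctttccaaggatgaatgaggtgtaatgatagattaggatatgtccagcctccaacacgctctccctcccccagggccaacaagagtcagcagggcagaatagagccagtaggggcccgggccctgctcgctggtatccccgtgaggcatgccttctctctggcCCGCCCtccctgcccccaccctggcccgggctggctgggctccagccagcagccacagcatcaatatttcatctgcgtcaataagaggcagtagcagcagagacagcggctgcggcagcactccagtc
Slc17a6: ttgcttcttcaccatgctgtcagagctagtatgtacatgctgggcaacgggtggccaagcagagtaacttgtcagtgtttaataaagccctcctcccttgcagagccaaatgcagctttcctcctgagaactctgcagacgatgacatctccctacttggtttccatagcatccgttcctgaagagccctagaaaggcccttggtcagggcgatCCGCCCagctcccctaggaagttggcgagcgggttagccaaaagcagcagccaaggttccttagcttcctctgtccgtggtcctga
A small set of motifs was searched on both strands: ATTAAT, the core of sites bound by Brn3 factors, TATAAA, the TATA box, and CCGCCC, the GC box. The GC box letters occurred 2 times in the Pou4f1 stretch, as overlapping matches, and 1 time each in those of Sncg and Slc17a6, and 35.7% of the 32851 RefSeq promoters of this length hold them. Neither ATTAAT, which 4.75% of the promoters hold, nor TATAAA, which 13.6% hold, was in the 3 stretches printed. A second RefSeq start of Slc17a6, at chr7:51624387-51624686, had 1 match to ATTAAT. Guanine and cytosine made up 78.3% of the Pou4f1 stretch, 61.3% of that of Sncg and 53.7% of that of Slc17a6, beside a median of 52.7% over all these promoters. These matches are letters in a window, and binding was not measured.

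Pou4f3 encodes Brn3c, which marks a smaller set of ganglion cells and is required in the hair cells of the inner ear. Its single probe read 7.19, 7.18 and 7.12 at 2 months and 7.11, 7.23 and 7.20 at 8 months. All 6 values were near the array median of 7.19, so no level of this gene was measurable on either side.

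Rbpms encodes an RNA-binding protein that is found in nearly all ganglion cells and in few other retinal neurons. At its brightest probe it read 8.87, 8.78 and 8.81 at 2 months, a narrow spread, and 9.02, 8.45 and 8.86 at 8 months. The 8 month samples therefore held both the highest value, in replicate 1, and the lowest, in replicate 2. The change was −0.05 (SE 0.134, limma adjusted p = 0.95), a fold of 0.968 with a 95% interval from 0.778 to 1.20. Without 8 month replicate 2 it was 0.12, with an adjusted p of 0.668 by limma (0.668 to 0.989 over the alternatives). Rbpms had 3 more probes above the filter, with changes of −0.07, −0.16 and 0.00177. Their SDs were 0.109, 0.112 and 0.0577 at 2 months and 0.183, 0.138 and 0.071 at 8 months. The brightest probe had 0.0478 and 0.295. In the 3 brighter of its 4 probes the lowest sample was again 8 month replicate 2, at 8.45, 8.39 and 8.12.

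Thy1 encodes a small glycoprotein of the cell surface that mouse T cells and some fibroblasts also carry, and its promoter is widely used to label ganglion cells in transgenic mice. The 2 month samples read 12.87, 12.89 and 12.90, an SD of 0.0152, and the 8 month samples 12.92, 12.69 and 13.21, an SD of 0.258. The 2 month values lay inside the range of the 8 month values. The change was 0.06 (SE 0.118, limma adjusted p = 0.932), a fold of 1.04 with a 95% interval from 0.859 to 1.26, and it was −0.076 without 8 month replicate 3. The other Thy1 probe stayed at 7.10 to 7.16 and was not tested. Of 9 T cell genes, 6 had a probe and none passed the filter, with Cd3d, Cd3e and Cd3g, the invariant chains of the T cell receptor complex, reaching 7.19, 7.27 and 7.24 at most. Of 12 fibroblast and mural cell genes 9 were tested and 0 called by limma, beside 0.158% of all genes called higher and 0.0664% lower. Of the 9 changes 7 were negative and 2 positive, the largest being that of Vtn at −0.81 (SE 0.13, limma adjusted p = 0.087), without overlap. The summed level of the 9 genes was 10.992 to 11.7 at 2 months and 10.9 to 11.3 at 8 months. Dcn, a matrix proteoglycan of fibroblasts, read 7.85 to 9.08 and Acta2, smooth muscle actin, 9.08 to 10.4, while the collagen genes Col1a1 and Col3a1 reached 7.31 and 7.21 at most. The part of these cells in the Thy1 signal was not tested.

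Slc17a6 encodes VGLUT2, the transporter that loads glutamate into the synaptic vesicles of ganglion cells. It read 12.26, 12.21 and 12.40 at 2 months and 12.27, 12.16 and 12.46 at 8 months, so that the extremes of all 6 samples were both 8 month samples. The change was 0.00523 (SE 0.0869, limma adjusted p = 0.992), a fold of 1.00 with a 95% interval from 0.871 to 1.16. Its second probe had a change of 0.03, and the probes followed each other over the 6 arrays (r = 0.945, given as a description). The sign of so small a change has no meaning: it was negative without any 1 of 2 month replicates 1 and 2 and 8 month replicate 3, at −0.00928, −0.034 and −0.076.

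Sncg encodes gamma-synuclein, a small soluble protein that is abundant in ganglion cell bodies and axons. Its brightest probe read 11.86, 11.78 and 12.04 at 2 months and 12.15, 11.95 and 12.17 at 8 months. Only 2 month replicate 3 reached into the 8 month range, lying above 8 month replicate 2. The change was 0.20 (SE 0.0869, limma adjusted p = 0.491), a fold of 1.15 with a 95% interval from 0.996 to 1.32. The second probe, ILMN_2939277, read 9.85, 9.92 and 10.194 at 2 months and 10.24, 10.27 and 10.196 at 8 months, and here the ages did not overlap, although the nearest samples were almost level. Its change was 0.25 (SE 0.0882, unadjusted p = 0.0257, adjusted p = 0.445 by limma over 22458 probes). With the haemoglobin level as a covariate the change of Sncg was −0.027 (SE 0.16).

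Neurofilaments were represented by Nefm, which encodes the medium chain. Its brightest probe read 10.78, 10.45 and 10.45 at 2 months and 10.98, 10.51 and 11.05 at 8 months. Replicates 1 and 3 of the 8 month samples lay above all 2 month samples, while 8 month replicate 2 lay beside the lower 2 month values. The change was 0.29 (SE 0.155, limma adjusted p = 0.623), a fold of 1.22 with a 95% interval from 0.947 to 1.57. It ran from 0.19 without 8 month replicate 3 to 0.45 without 8 month replicate 2, and was 0.10 (SE 0.326) with the haemoglobin level as a covariate. The other probes of Nefm had changes of 0.19 and 0.14. Nefl encodes the light chain, without which neurofilaments do not assemble, and it is the next protein-coding gene to Nefm in RefSeq (GRCm38.p6), with 0 others between. Its single probe read 7.10, 7.05 and 7.12 at 2 months and 7.12, 7.08 and 7.04 at 8 months, below the array median in all 6 samples. A low level of Nefl and a probe that does not report it cannot be told apart here. Horizontal cells, which also hold neurofilaments, had 4 tested marker genes. By limma 0 of the 4 were called, beside 0.158% of all genes called higher and 0.0664% lower. Lhx1, a transcription factor of these cells, had a change of −0.44 (SE 0.0611, limma adjusted p = 0.0555). Onecut2 had a change of −0.12, Tpm3 one of −0.09 and Prox1, the brightest of the 4, one of 0.02. For Tpm3 and Prox1 the ages overlapped. The summed level of those 4 genes was 11.424 to 11.541 at 2 months and 11.375 to 11.404 at 8 months, without overlap. Their part in the Nefm signal was not tested.

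Tested probe by probe over 22458 probes, 0 of the 13 passed in either direction by limma, where 0.0356% of all probes were called higher and 0.0134% lower. At an unadjusted p below 0.05, 1 of 13 was higher, the second probe of Sncg, beside 4.62% of all probes, and 0 of 13 were lower, beside 4.44%. The ages did not overlap for that probe alone, 1 of 13, where 7.08% of all probes lay higher at 8 months and 6.61% lower. Of the 13 changes, 10 were positive and 3 negative, the negative ones all from Rbpms, with a median of 0.06 beside 0.00212 over all probes. Probes of 1 gene read the same transcripts and are not independent.

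**Figure D2:**
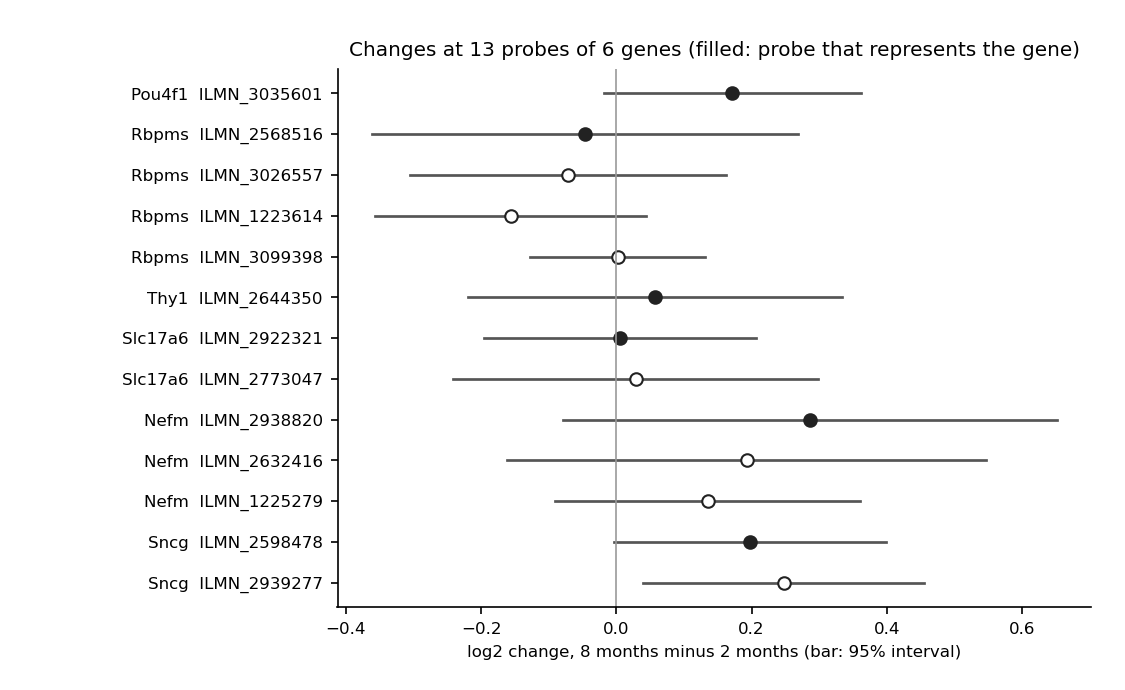
Changes from 2 to 8 months (horizontal axis, log2) are plotted with 95% intervals from limma for the 13 tested probes, named by gene and probe. The interval excludes 0 for the second probe of Sncg alone, which did not pass after adjustment, and the probes of Rbpms lie furthest to the left.

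The genes varied more between pools of 1 age than most genes on the array. The pooled SD within age was 0.248 for Nefm, 0.211 for Rbpms and 0.183 for Thy1, beside a median of 0.0823 over all tested genes, and 2.1%, 3.73% and 6.38% of genes had a larger one. For Pou4f1, Slc17a6 and Sncg it was 0.117, 0.126 and 0.125. That SD had a median of 0.109 over the 6023 brighter genes and 0.059 over the 6023 dimmer ones. For Nefm, Rbpms and Thy1 the SD was 0.193, 0.0478 and 0.0152 at 2 months and 0.292, 0.295 and 0.258 at 8 months. For Sncg it was 0.133 and 0.117. For Thy1 and Slc17a6 the lowest and highest samples were 8 month replicates 2 and 3, and for Rbpms 8 month replicates 2 and 1. Replicate 2 was the lowest of the 6 samples for 3 of the 6 genes (50%, Rbpms, Thy1 and Slc17a6), as it was for 15.8% of all tested genes, and for 7 of 13 probes (53.8%, beside 16.5% of all probes). Replicate 3 was the highest for 5 of the 6 genes (83.3%, beside 16.2%), Rbpms being the exception. By probe it was the highest for 5 of 13 (38.5%, beside 16.4% of all probes), and 8 month replicate 1 also for 5 of 13. Centred on the mean of each gene, the median of the 6 genes was −0.16 in 8 month replicate 2, 0.21 in 8 month replicate 3, 0.08 in 8 month replicate 1, and −0.05 to −0.00249 at 2 months. Without replicate 2 the median change of the 6 genes was 0.19, and without replicate 3 it was 0.00811, and in neither case was a gene called. Pigment epithelium genes were low in 8 month replicate 3, as given above, and their part in these levels was not tested.

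Other ganglion cell genes were set beside these. Of 25 listed, 21 were tested, and 0 passed in either direction by limma, where 0.158% of all genes were called higher and 0.0664% lower. At an unadjusted p below 0.05, 1 was higher and 1 lower, beside 5.1% and 5.34% of all genes. The median change of the 21 was −0.03, with 7 positive and 14 negative. Cartpt, the precursor of a peptide found in direction-selective ganglion cells, read 12.17, 12.18 and 12.16 at 2 months and 12.29, 12.39 and 12.33 at 8 months. Its ages did not overlap, and the change was 0.17 (SE 0.0475, adjusted p = 0.264 by limma). Without overlap, 2 of the 21 genes lay higher at 8 months and 0 lower, beside 7.45% and 7.59% of all genes. Isl1, a transcription factor of ganglion, amacrine and ON bipolar cells, had a change of −0.17 (SE 0.0677, adjusted p = 0.443), and Pvalb, a calcium buffer, one of −0.19 (SE 0.0794, adjusted p = 0.479). In 8 month replicate 2, 13 of these 21 genes (61.9%) had their lowest value. For Rbpms2, a paralog of Rbpms that like Nrn1 was chosen after its values were seen, the 8 month samples read 9.18, 8.81 and 9.38, and for Nrn1, a neurite growth factor on the cell surface, 11.76, 11.38 and 11.55. Without that sample the median change of the list was 0.01. Among markers of other cells, that sample was the lowest for 1 of 13 amacrine genes, 2 of 9 bipolar genes, 2 of 9 Müller glia genes and 6 of 9 lens genes. The highest sample was 8 month replicate 3 for 3 of the 21 other ganglion cell genes (14.3%), beside 16.2% of all genes. For the amacrine genes it was the highest for 7 of 13 (53.8%).

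**Figure D3:**
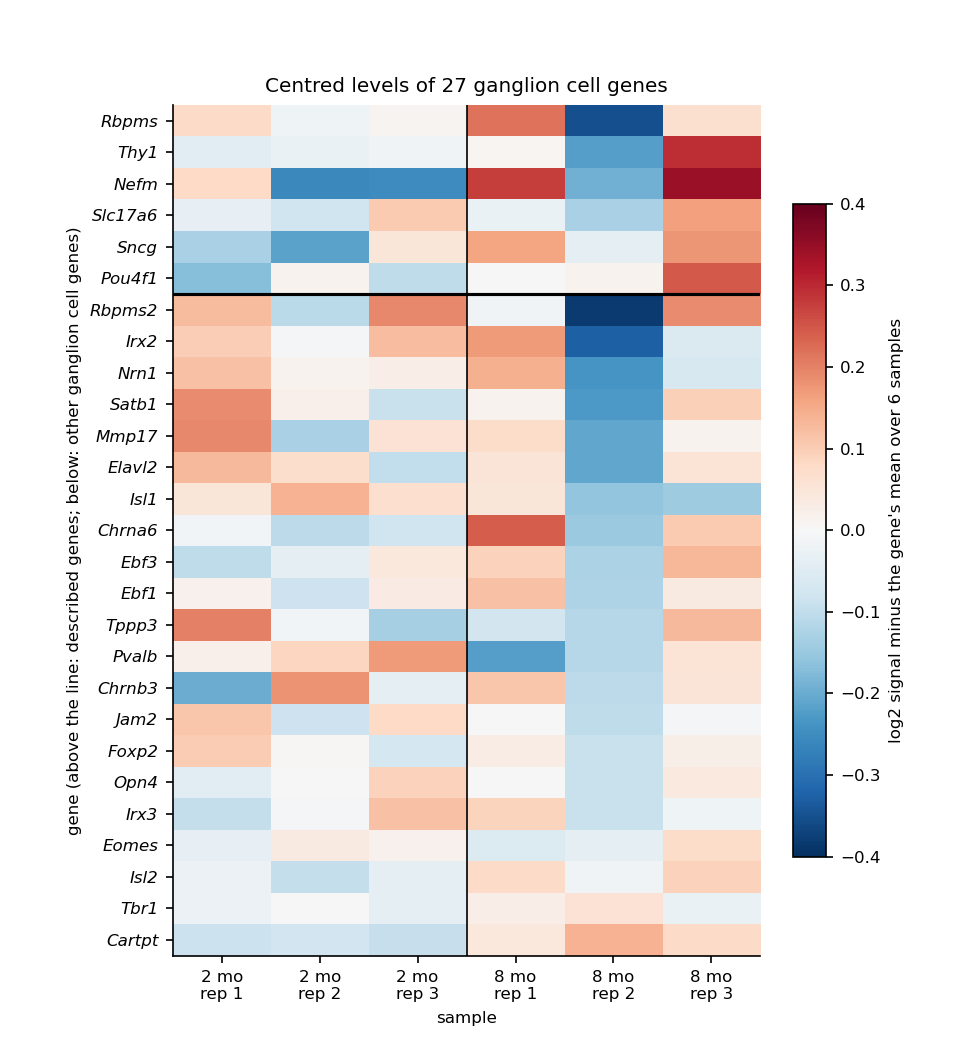
Colour shows the log2 signal of each gene minus its mean over the 6 samples, for the 6 tested genes (above the black line) and 21 other ganglion cell genes (below), each group ordered by its value in 8 month replicate 2. The column of that sample is blue for most genes, with Cartpt at the opposite end, and the columns to the left of the vertical line are the 2 month samples.

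Genes of the axon and its cytoskeleton gave changes in both directions, from −0.45 to 0.39. Of 27 listed, 26 were tested and 0 passed by limma, where 0.158% of all genes were called higher and 0.0664% lower. Of the 26 changes 19 were positive and 7 negative, with a median of 0.06. At an unadjusted p below 0.05, 4 were higher (Map1b, Prph, Gap43 and Cntn2, the last outside the rule for named genes) and 1 lower (Dpysl3), beside 5.1% and 5.34% of all genes. Map1b, a microtubule-associated protein of growing axons, had a change of 0.35 (SE 0.0761, adjusted p = 0.168), but its 5 probes ran from −0.13 to 0.35. Prph encodes peripherin, an intermediate filament that joins neurofilaments, and read 7.84, 7.84 and 7.71 at 2 months and 8.08, 7.96 and 8.15 at 8 months, with no overlap. Its change was 0.27 (SE 0.0676, adjusted p = 0.229 by limma). Gap43, a protein of growth cones, had a change of 0.39 (SE 0.114, adjusted p = 0.286) at 1 probe, also without overlap and chosen after its values were seen. Dpysl3, which acts on the cytoskeleton of growth cones, had one of −0.45 (SE 0.109, adjusted p = 0.223), also without overlap. Of the 26 genes, 4 lay higher and 1 lower with no overlap, beside 7.45% and 7.59% of all genes. Ina, the alpha-internexin chain that assembles with neurofilaments in the central nervous system, was at 10.0 ± 0.122 at 2 months and 9.97 ± 0.170 at 8 months (SD, n = 3), and was likewise chosen after its values were seen.

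Paralogs of Sncg and Slc17a6 were tested where they had a probe. Sncb, beta-synuclein, had a change of −0.00249 (SE 0.0733). Slc17a7, which encodes VGLUT1 of photoreceptors and bipolar cells, had one of −0.15 (SE 0.113, limma adjusted p = 0.751). Slc17a8, which encodes VGLUT3 of a class of amacrine cells, read 9.33, 9.41 and 9.27 at 2 months and 9.10, 9.04 and 8.95 at 8 months. The ages did not overlap, and the change of −0.31 (SE 0.0613) did not pass (adjusted p = 0.14 by limma).

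Genes that injured ganglion cells are known to switch on in mice were measured as a further list. Of 17 listed, 15 were tested, with a median change of 0.03, 11 positive and 4 negative. By limma 0 of the 15 passed, where 0.158% of all genes were called higher and 0.0664% lower. At an unadjusted p below 0.05, 2 were higher and 0 lower. Over all genes 5.1% were higher and 5.34% lower by that measure. The 2 were Tnfrsf12a and Ecel1. Tnfrsf12a, the receptor of the cytokine TWEAK, read 8.13, 7.89 and 8.05 at 2 months and 8.49, 8.61 and 8.56 at 8 months, a change of 0.53 (SE 0.0723, adjusted p = 0.0536). Ecel1, a membrane endopeptidase of neurons, read 7.10, 7.17 and 7.13 at 2 months, below the array median in all 3 samples, and 7.84, 7.75 and 7.53 at 8 months. It passed the filter only through the samples in which it was high, so its levels are a description and its p is no support. Both genes had 1 probe. The adjusted p of Tnfrsf12a was 0.0144 with a filter at the 75th percentile and 0.0483 after cyclic loess, and it ran from 0.00289 to 0.695 over all alternatives. Other members had small changes, among them the transcription factor Sox11 at 0.08 (SE 0.0702) and Atf3 at 0.03 (SE 0.0502), the latter chosen after its values were seen. The array does not tell which cells carried these transcripts.

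**Figure D4:**
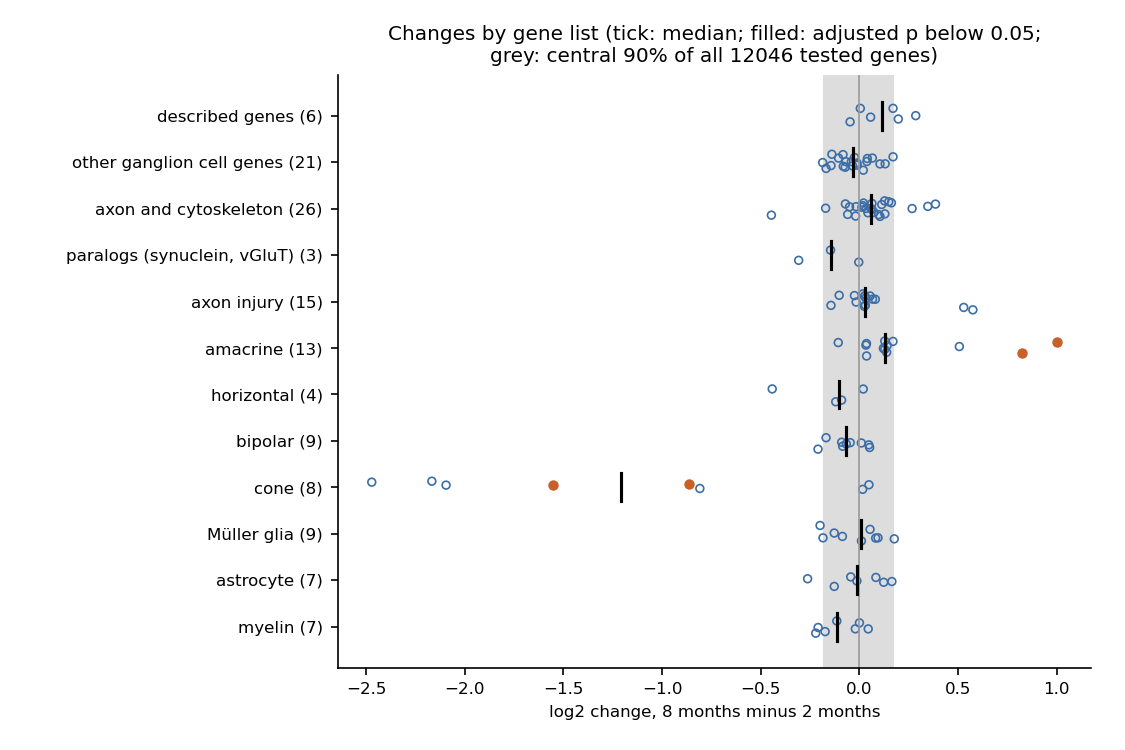
Each point is a tested gene, placed by its change from 2 to 8 months (horizontal axis, log2) in the list named at the left with its number of tested genes. Ticks are medians, filled points passed an adjusted p of 0.05, and the grey band, from −0.18 to 0.18, holds the central 90% of all 12046 genes. The 6 genes described lie between −0.05 and 0.29, and the filled points are cone and amacrine genes.

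Markers of other cells in the tissue are given for the same arrays. Of 13 tested amacrine genes 2 were called higher by limma, Vip and Tac1, beside 0.158% of all genes. Of 8 tested cone genes 2 were called lower, Arr3 and Gnat2, beside 0.0664% of all genes. Without overlap, 6 of the 8 cone genes lay lower at 8 months, and 5 of the 13 amacrine genes lay higher and 1 lower. Over all genes 7.45% lay higher and 7.59% lower in this way. The summed level of the amacrine genes was 15.1 at 2 months and 15.2 to 15.4 at 8 months. That of the cone genes was 13.8 to 14.2 and 12.6 to 13.1. Displaced amacrine cells share the ganglion cell layer, and the part of amacrine cells in the signal of the 6 genes was not tested. Myelin genes, which would mark optic nerve in a punch, had 7 tested members with 0 called by limma and a summed level of 11.2 to 11.3 at 2 months and 10.995 to 11.2 at 8 months. Mog, Mobp, Ermn and Opalin, all defining genes of oligodendrocytes, stayed below the filter, at 7.25 at most. Among the 7 tested, Mbp read 8.66 to 9.01, Cnp 8.05 to 8.52 and Pmp22 9.27 to 9.63, while Mag reached 7.25 at most. In 8 month replicate 2 the summed level of the 7 tested genes was 11.2, against 11.05 in 8 month replicate 1 and 10.995 in 8 month replicate 3. Of the 7, only Mbp, at 9.01, and Cnp, at 8.52, were highest in 8 month replicate 2. Of 8 astrocyte genes 7 were tested and 0 called by limma, with a summed level of 12.2 to 12.7 at 2 months and 12.50 to 12.55 at 8 months. Among them Gfap, the filament of astrocytes and reactive Müller glia, read 9.82 to 11.1, while Pax2, a marker of optic nerve head astrocytes, reached 7.19 at most and did not pass the filter.

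The genes whose pattern over the 6 arrays was most like that of Nefm, among 852 genes that varied by at least 0.5, were Pfn2, Mfsd6, Syt4, Lin7b and Sulf2, with Pearson correlations of 0.973, 0.92, 0.894, 0.867 and 0.848. For the mean of the other 5 genes they were Stk35, Pex7, Cacna1g, Rab6b and Adcy1, with 0.935, 0.927, 0.893, 0.888 and 0.873. The arrays were normalized together and are only 6, so these are descriptions. Pfn2, a neuronal profilin, read 12.38, 12.07 and 12.14 at 2 months and 12.59, 12.29 and 12.67 at 8 months, in the same order of samples as Nefm, and its change of 0.32 (SE 0.118) did not pass (adjusted p = 0.409 by limma). Among the 6 genes themselves the correlation over the arrays ran from −0.03 for Pou4f1 and Rbpms to 0.843 for Thy1 and Slc17a6.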

How the data were processed

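RNA of 6 pools of central retina was measured, 3 at 2 and 3 at 8 months, grouped by the sample titles. The titles number the 2 month samples 1, 2 and 3 where the descriptions have 1, 1 and 2, and the titles were used. Per the labels' protocols, biotinylated cRNA was made from column-purified RNA for Illumina arrays. Values were deposited in log2 units, as read from their range, and the authors' columns share 1 distribution (sorted values differ by 0.00307 at most), as after quantile normalization. Whether the transform is a plain log2 is not known. The software and the background correction are not stated in the sources used here, and no detection p-values were used. The number of arrays limits the precision.

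Names come from GEO's array annotation, where 34885 probes have 1 symbol, 18 several and 10378 none. Changes are 8 minus 2 months, tested in R 4.3.3 by limma 3.58.1 (lmFit and eBayes with 4 residual and 3.311 prior degrees of freedom), once over 12046 genes and once over 22458 probes above the filter, with Benjamini-Hochberg adjustment at 0.05. Standard errors and 95% intervals are moderated. The summed level of a list is log2 of the sum of its genes' linear values. The test was checked on simulated data.

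The members and lists were chosen with earlier results of these data known. Named genes are all members, the 3 of lowest p from each neighbouring list, and the 5 genes most like them, for which the rule's neurofilament mean came down to Nefm. Other names carry a remark, apart from those given to check a cell type. The alternatives were 3 normalizations, 2 filters, 2 probe rules, a trended robust prior, array weights, a replicate block, a haemoglobin covariate, already known from earlier results, and leaving out each sample.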

Additional observations from a re-analysis of the deposited data

How the results depend on the processing

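Under 17 alternatives 0 of the tested genes and, under the 15 that apply to single probes, 0 of the probes were called in either direction, and the median change of the genes ran from 0.00811 to 0.19 when 1 sample was left out and from 0.02 to 0.13 otherwise. Over all genes the calls depended on the setting: 19 higher and 8 lower became 5 and 2 with no filter, 38 and 35 with a filter at the 75th percentile, 9 and 3 with the most variable probe, 52 and 52 with a trended robust prior, and 0 and 0 with the haemoglobin covariate. The haemoglobin level did not overlap between the ages, so results with that covariate cannot tell it apart from age. Leaving out 1 sample gave 2 to 12 higher and 0 to 19 lower. With the replicate block 14 were higher and 18 lower, and no ganglion cell gene was called. Same-numbered samples deviated together at r = 0.0537, 0.128 and 0.157, so the numbers were not taken as pairs, although each sample correlated best with its own number. Some signs turned. Slc17a6 was at −0.14 and Sncg at −0.027 with the haemoglobin covariate. Leaving out 1 sample moved Slc17a6 between −0.076 (without 8 month replicate 3) and 0.072, Rbpms between −0.17 and 0.12 (without 8 month replicate 2) and Thy1 between −0.076 (without 8 month replicate 3) and 0.18. For the added lists, run after seeing the data, Sncb was at 0.017 with array weights and between −0.0601 and 0.063 (without 2 month replicate 3) when 1 sample was left out, while Slc17a7 was at 0.30 and Sox11 at −0.00666 with the haemoglobin covariate. Tnfrsf12a passed with a trended robust prior (limma adjusted p = 0.00289), and its adjusted p ran up to 0.695 over the alternatives. With the haemoglobin covariate Nefm was at 0.10 and Pou4f1 at 0.35. The count of ganglion cell genes at an unadjusted p below 0.05 was 1 under 7 alternatives and 2 under the replicate block and without 8 month replicate 2. The cause of these shifts was not tested. Signal over background limits Nefl and Pou4f3.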
